A study of Mus musculus with 17 samples.

Results

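The interferon-induced genes examined here are a set of 49 genes chosen by name as known interferon targets, of 47643 rows in the deposited table. No threshold on their values entered the choice, but earlier results of these data were known when the set was made. Expression was measured by sequencing polyA RNA from Foxp3-GFP+ regulatory T cells (Tregs) sorted from the spleen of NOD mice, which spontaneously become diabetic through autoimmunity. Tregs depend on the transcription factor Foxp3, and all groups carried the NOD background and a Foxp3-GFP reporter. The 17 libraries comprised 6 from NOD-60A mice transgenic for Nfkbid, 5 from Nfkbid knockout mice and 6 from NOD control mice. Nfkbid encodes an atypical IkB protein that acts in the nucleus as a modulator of NF-kB. Each transgenic library was made from 1 sample, whereas the design text gives each knockout or control library as a pool of 2, although the names of control replicates 3 and 6 each span 3 numbers, so pooling cannot be told apart from the transgene in comparisons with the transgenic group. The promoter that drives the transgene and the age of the mice were not found in the labels. Nor do the labels say whether libraries came from separate litters, and the p-values below measure only the variation among these libraries.

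Type I interferons signal through the kinases JAK1 and TYK2 to a complex that contains STAT2 and IRF9 and binds interferon-stimulated response elements. Interferon gamma signals through JAK1 and JAK2, acts at gamma-activated sites and induces IRF1. Many antiviral proteins, such as the IFIT, OAS and Mx families, are mainly targets of type I interferon, whereas guanylate-binding proteins (GBPs), immunity-related GTPases and genes of antigen presentation respond strongly to interferon gamma. In T cells, basal transcription of these genes depends on tonic interferon signalling.

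Promoter sequences are shown for 5 called members, to give examples of the response elements in these families. Ifit3 and Ifit1bl1 were higher than controls in both mutant groups, Rsad2 was called in transgenic against control only, and Gbp5 and Gbp7 were higher in transgenic libraries than in both other groups. The 5 were picked with their values known. They are from RefSeq on GRCm38.p6 and run from 250 bases before to 50 bases after the annotated start, 5′ to 3′ along the gene. Capitals mark matches, on either strand, to 1 of 2 motifs. The first, a core of the interferon-stimulated response element, is GAAA, any 2 bases and GAAA. The second, a gamma-activated site, is TTC, any 3 bases and GAA. The windows lie at chr19:34583279-34583578 (+ strand) for Ifit3, chr19:34601919-34602218 (- strand) for Ifit1bl1, chr12:26456403-26456702 (- strand) for Rsad2, chr3:142496684-142496983 (+ strand) for Gbp5 and chr3:142530086-142530385 (+ strand) for Gbp7.
Ifit3: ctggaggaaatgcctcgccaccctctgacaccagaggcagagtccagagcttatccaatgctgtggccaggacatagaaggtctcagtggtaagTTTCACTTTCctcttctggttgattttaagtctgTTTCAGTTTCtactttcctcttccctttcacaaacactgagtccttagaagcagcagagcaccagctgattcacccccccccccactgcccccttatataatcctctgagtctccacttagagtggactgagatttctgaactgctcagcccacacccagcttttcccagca
Ifit1bl1: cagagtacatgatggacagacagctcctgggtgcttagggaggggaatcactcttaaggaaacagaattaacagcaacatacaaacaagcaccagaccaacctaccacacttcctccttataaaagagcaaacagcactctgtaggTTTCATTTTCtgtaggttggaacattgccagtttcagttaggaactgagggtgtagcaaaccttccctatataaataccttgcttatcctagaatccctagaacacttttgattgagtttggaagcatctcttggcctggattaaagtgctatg
Rsad2: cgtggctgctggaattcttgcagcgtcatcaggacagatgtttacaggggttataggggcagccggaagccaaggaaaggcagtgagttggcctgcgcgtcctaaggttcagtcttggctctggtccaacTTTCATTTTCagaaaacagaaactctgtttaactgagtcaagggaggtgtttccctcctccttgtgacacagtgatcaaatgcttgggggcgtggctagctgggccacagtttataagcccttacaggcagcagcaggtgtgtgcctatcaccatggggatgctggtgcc
Gbp5: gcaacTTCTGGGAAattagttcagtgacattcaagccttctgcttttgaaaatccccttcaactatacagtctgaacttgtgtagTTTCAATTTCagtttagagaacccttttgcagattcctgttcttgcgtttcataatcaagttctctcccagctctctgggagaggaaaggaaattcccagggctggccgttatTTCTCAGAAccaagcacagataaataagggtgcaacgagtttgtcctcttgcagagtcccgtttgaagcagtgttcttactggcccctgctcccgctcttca
Gbp7: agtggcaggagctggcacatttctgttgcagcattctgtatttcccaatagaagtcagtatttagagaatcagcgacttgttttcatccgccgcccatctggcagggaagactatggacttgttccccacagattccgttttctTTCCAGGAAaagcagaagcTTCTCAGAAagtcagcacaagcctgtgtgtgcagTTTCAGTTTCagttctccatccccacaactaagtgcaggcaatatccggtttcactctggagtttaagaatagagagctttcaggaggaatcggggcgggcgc

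The Ifit3 window holds 2 matches to the response element core and the Ifit1bl1 and Rsad2 windows 1 each, with 0 gamma-activated sites in these 3. The Gbp5 and Gbp7 windows each hold 1 match to the response element core and 2 gamma-activated sites, whereas those of Gbp2 and Gbp3, not shown, hold 1 and 2 matches to the core and 0 gamma-activated sites. Among other called members, the Psmb9 and Tap1 windows hold 0 matches to either motif. Those of Slfn5 and Trim30a each hold 1 match to the core and 0 gamma-activated sites. A row of this table may count a neighbouring gene, so these promoters need not be those of the genes counted. Of the 49 members, 36 had a promoter in the RefSeq table. The response element core was present in 20 of the 36 (55.6%), against 3.5% of 27025 promoters of the same length. The gamma-activated site was present in 10 of the 36 (27.8%), against 8.5%. The 2 motifs share bases in 21 promoters of the whole table. A match is a description of these letters, not an occupied site.

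Row names need care in this table. When every row's exons were displaced on GRCm38 in proportion to their chromosome position, the mean Spearman's rho between a row's mean count and the protein-coding exon bases under it, over 20 chromosomes, was 0.521 unmoved and highest at 0.542, with a move of 0.4 kb per Mb. At the mirrored move of -0.4 kb per Mb it was 0.438. Chromosomes differed: the best move was 0.35 to 0.55 kb per Mb on 14 and 0 to 0.2 on the other 6 (2, 12, 14, 16, 18 and X), and on 6 of the 20 rho was lower at the common move than unmoved. Rows far along a chromosome may therefore hold reads of a gene downstream, often of the same family cluster. A row named Ifna2, a gene that Tregs are not known to transcribe, held up to 1030 counts, while the Isg15 row, one of the most strongly induced interferon targets in most cells, was at 0 in all 17 libraries. Names below are therefore those of the rows, and each family is also given as a sum over its genome window.

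**Figure D1:**
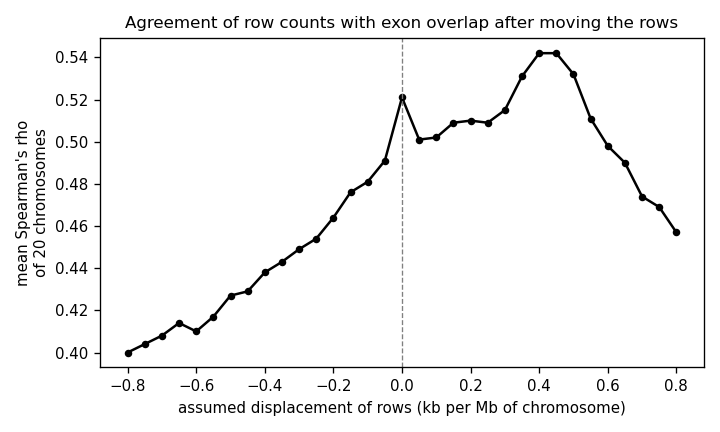
Mean Spearman's rho over 20 chromosomes (y axis) between row counts and the protein-coding exon bases under the row, for 33 assumed displacements (x axis, kb per Mb of chromosome; dashed line, rows unmoved). The curve has a local peak of 0.521 with rows unmoved and its highest value of 0.542 at 0.4 kb per Mb.

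Library totals ran from 3133388 to 4726615 counts, and 3 counts corresponded to 0.62 to 1.03 CPM (library-scaled counts, with TMM factors). The factors were 0.864, 0.864 and 0.859 in transgenic replicate 1 and knockout replicates 2 and 5, and 0.951 to 1.09 in the other libraries. A lower factor gives a higher CPM for the same counts and library total. Knockout replicates 2, 3 and 5 had fewer rows above 0, 13476 to 13802 against 15039 and 15931 in the other knockout libraries. All 3 lay above the other knockout libraries in 21.6% of the rows tested and below them in 22.6%. Column headers carry numbers that put control replicates 1 and 2 (10202 and 10203) among the transgenic libraries (10198 to 10207), apart from the other controls (10728 to 10865) and the knockouts (10761 to 10765). The labels do not say what these numbers stand for, and they give 1 batch for all libraries. The Nfkbid row held 4.55 ± 0.909 CPM in control libraries (SD, n = 6), 4.73 ± 2.4 CPM in knockouts (SD, n = 5) and 8.74 ± 1.51 CPM in transgenic libraries (SD, n = 6), so it does not check the knockout label. Foxp3 was not called in any comparison. Rows of 8 Treg markers summed to 1670 to 1850 CPM in transgenic libraries, 1390 to 1500 in knockouts and 1350 to 1490 in controls. The largest of these rows, Nt5e, held 565 to 733, 390 to 509 and 429 to 487 CPM in the same order. Cd3e, also among the 8, had at most 11 counts in any library and was not tested. Of the 7 Treg marker rows tested, 4 were called in at least 1 comparison. Of all rows tested, 7.4% were called for transgenic against control, 1.89% for knockout against control and 10.7% for transgenic against knockout. Marker rows of plasmacytoid dendritic cells summed to 85.8 to 119 CPM in transgenic libraries, a range that included every knockout and control library. In the same order, those of monocytes and macrophages summed to 50.4 to 66.8, 45.8 to 66.2 and 48.3 to 60.1, those of B cells to 177 to 268, 170.0 to 257 and 213 to 299, and those of NK cells to 5.78 to 13.4, 7.7 to 19.9 and 6.72 to 11.6. None of the 9 marker rows of these 4 other cell types that were tested was called, and the B cell markers Cd79b and Ebf1 were at 0 in every library.

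Among the 49 members, 26 passed the filter on low counts and were tested. The other 23 comprised 9 rows at 0 in all libraries (Isg15, Usp18, Ifit1, Oas1a, Zbp1, Isg20, Xaf1, Ifi27l2a and Igtp) and 14 with at most 19 counts in any library. Compared with controls, transgenic Tregs had higher counts in 11 of the 26 tested rows and lower counts in 0 (edgeR's quasi-likelihood test, Benjamini-Hochberg adjusted p under 0.05). Of all rows tested, 5.23% were called higher and 2.17% lower, 7.4% in all. Knockout Tregs had higher counts than controls in 5 of the 26 and lower counts in 0, where 0.881% of all rows were called higher and 1.01% lower, 1.89% in all. Transgenic against knockout libraries, 3 of the 26 were higher and 0 lower, against 6.34% and 4.33% of all rows, 10.7% in all. At an unadjusted p under 0.05, no member was lower in transgenic than in control or knockout libraries or in knockout than in control libraries, and DESeq2 and limma with voom also called 0 members lower. Fewer cells of a type and less RNA per cell cannot be told apart in such bulk libraries.

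The median log2 fold change of the 26 tested rows was 0.65 for transgenic against control, where that of all rows tested was -0.01. It was 0.36 against -0.02 for knockout against control and 0.23 against -0.00 for transgenic against knockout. In 7 of the 26 rows every transgenic library lay above every control library, as did 4.66% of all rows tested. Every knockout library lay above every control in 4 of the 26, against 1.08% of all rows, and every transgenic above every knockout library in 2, against 4.24%. Both comparisons with controls use the same 6 control libraries, so their values are set side by side and are not independent.

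**Figure D2:**
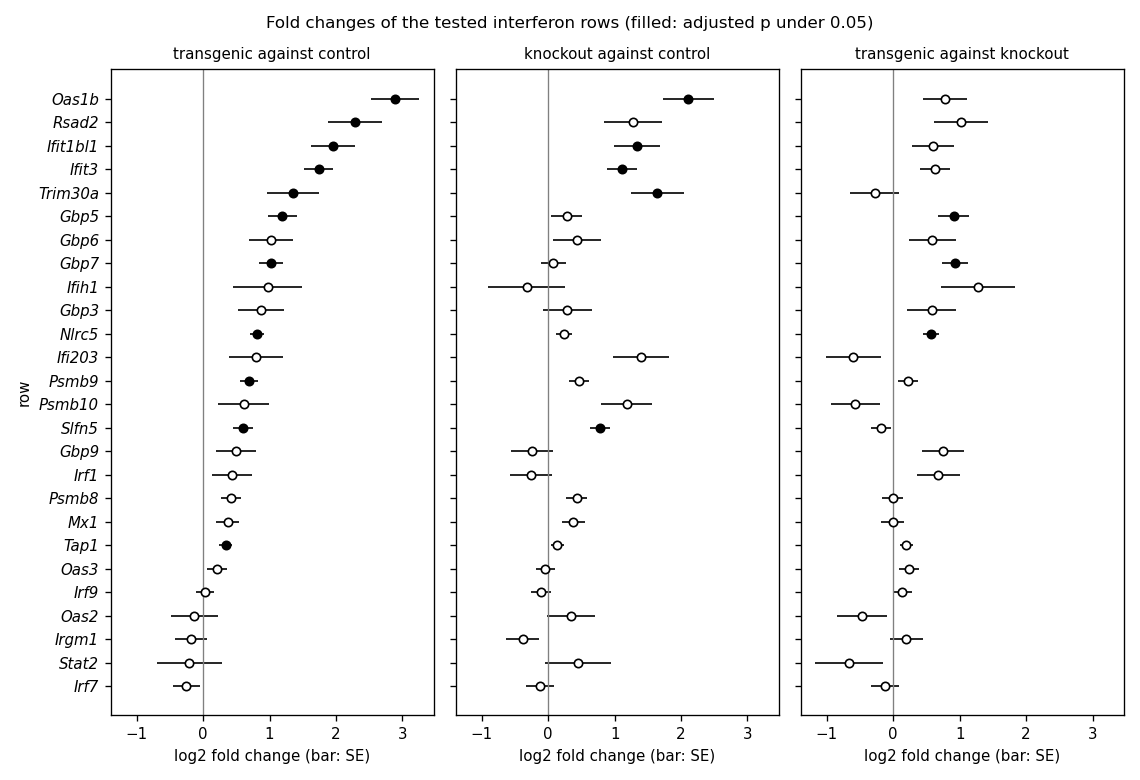
Log2 fold change (x axis; bar, SE) of the 26 tested interferon rows (y axis) in the 3 comparisons, ordered by transgenic against control, with filled points for an adjusted p under 0.05. Oas1b, Rsad2, Ifit1bl1 and Ifit3 lead the left panel with values from 1.74 to 2.89. Gbp5, Gbp7 and Nlrc5 are the filled points of the right panel.

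Of the 11 called rows, 8 fell into 2 patterns, set only by which comparisons passed the threshold. A comparison without a call does not show that its groups were equal. Ifit3, Ifit1bl1, Oas1b, Trim30a and Slfn5 were higher in both transgenic and knockout libraries than in controls, with no call between the first 2 groups. Gbp5, Gbp7 and Nlrc5 were higher in transgenic libraries than in either other group, with no call between knockouts and controls. Rsad2, Psmb9 and Tap1 were called for transgenic against control only, and none of their other comparisons passed the test. Of 29 alternative settings, the call for knockout against control was lost in 18 for Ifit1bl1 and in 13 for Trim30a. Ifit3 gained a call for transgenic against knockout in 6.

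IFIT proteins bind foreign RNA and block its translation. The Ifit3 row (ENSMUSG00000074896, chromosome 19, 34583531 to 34588731, GRCm38) held 27.2, 40.0 and 45.5 CPM as lowest, median and highest value in transgenic libraries. Its knockout values were 19.2, 21.4, 33.8, 30.5 and 20.2 CPM in replicates 1 to 5, and the control values were 6.31, 11.5 and 16.2 CPM as lowest, median and highest. Every transgenic and every knockout library thus lay above the highest control, while transgenic and knockout values overlapped. Over controls, the log2 fold change was 1.74 in transgenic (SE 0.22, adjusted p = 1.1e-05) and 1.11 in knockout libraries (SE 0.23, adjusted p = 0.011). Between the mutant groups, transgenic over knockout, it was 0.63 (SE 0.22, adjusted p = 0.0699). The last difference was called when knockout replicate 3 (0.76) or 4 (0.71) was left out.

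The Ifit1bl1 row (ENSMUSG00000079339, chromosome 19, 34592891 to 34601956), a further member of the cluster, held 7.63, 10.2 and 13.2 CPM in transgenic libraries (lowest, median, highest). Knockout replicates 1 to 5 held 7.99, 3.89, 11.1, 5.0 and 6.19 CPM, and controls 1.24, 2.46 and 5.03. Transgenic values all exceeded the controls, while knockout replicates 2 and 4 lay below the highest control, replicate 2. The row rose by 1.95 (SE 0.33, adjusted p = 0.00042) in transgenic and by 1.34 (SE 0.35, adjusted p = 0.0478) in knockout libraries over controls on the log2 scale. The second call is near the threshold. It ended when any 1 of transgenic replicates 2 to 6, knockout replicates 3 or 5, or control replicates 1, 3, 4, 5 or 6 was left out, with values of 1.10 to 1.43.

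Most counts of the Ifit window lay in the row named Ifit2, which is not among the 49 members but is an interferon target of the same cluster. This row held 227, 378 and 838 CPM in transgenic libraries, 225, 735, 587, 234 and 399 CPM in knockout replicates 1 to 5 and 46.2, 63.8 and 161 CPM in controls. Over controls it was higher by 2.46 on the log2 scale in transgenic (SE 0.35, adjusted p = 5.87e-05) and by 2.42 in knockout libraries (SE 0.36, adjusted p = 0.000529), and these 2 groups differed by 0.03 (SE 0.34). Summed over the 8 rows of the Ifit window (chromosome 19, 34483531 to 34750009), transgenic libraries held 523 ± 209 CPM (SD, n = 6), knockouts 494 ± 220 (SD, n = 5) and controls 120 ± 46.4 (SD, n = 6), of which 8.7% came from members. The highest sums were those of transgenic replicate 1 (907 CPM) and knockout replicates 2 and 3 (776 and 662 CPM), followed by transgenic replicate 2 (576 CPM). The lowest transgenic and knockout sums, 287 and 281 CPM, still exceeded the highest control, 203 CPM. Moved by 0.4 kb per Mb, the exons of the Ifit2 row overlapped those of Ifit3 by 1671 bases, and the Ifit3 and Ifit1bl1 rows overlapped Ifit1bl1 and Ifit3b by 67 and 89. The remaining IFIT members, Ifit1 and Ifit3b, had 0 and at most 8 counts.

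2′-5′-oligoadenylate synthetases (OAS) sense double-stranded RNA and activate RNase L. The Oas1b row (ENSMUSG00000029605, chromosome 5, 120812635 to 120824163) held 11.2, 21.8 and 36.4 CPM in transgenic libraries, 11.5, 13.6, 15.6, 8.6 and 16.9 in knockout replicates 1 to 5 and 1.03, 3.35 and 4.84 in controls. The lowest library of either mutant group was above the highest control. Its log2 fold changes over controls, 2.89 in transgenic (SE 0.36, adjusted p = 1.04e-05) and 2.11 in knockout libraries (SE 0.38, adjusted p = 0.00343), were the largest of the tested members. The difference of 0.78 (SE 0.33, adjusted p = 0.139) between transgenic and knockout was not called. Oas3, a row with more counts, was not called, at 122 to 173 CPM in transgenic libraries, 79.8 to 158 in knockouts and 114 to 148 in controls, nor was Oas2 at 1.61 to 8.79 CPM across all libraries. Summed over the Oas window of 19 rows (chromosome 5, 120630333 to 121007521), the groups held 272 ± 16.6, 217 ± 44.1 and 186 ± 18.7 CPM (transgenic, knockout, control). Members gave 67.2% of this sum, and the rows Dtx1 and Rasal1 in it, not members, were themselves higher in transgenic than in control libraries by 1.87 and 0.75 (adjusted p = 8.27e-05 and 0.00228). Dtx1 was also higher in knockouts than in controls, by 1.59 (adjusted p = 0.00352), whereas Rasal1 was not called there (0.11, adjusted p = 0.71). All transgenic sums, from 244 CPM, exceeded the highest control sum of 215 CPM, while the knockout sums of 156 to 263 CPM spanned the controls. In the narrower window with 50 kb beside the members, 93.9% from members, transgenic sums of 162 to 206 CPM overlapped control sums of 131 to 164 CPM. At the scanned move the Oas1b row lay on Oas1h, with 347 bases, and Oas3 on Oas1c, with 646.

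Rsad2 encodes viperin, a radical SAM enzyme that makes a chain-terminating nucleotide. Its row (ENSMUSG00000020641, chromosome 12, 26442746 to 26456452) held 4.13, 6.85 and 13.2 CPM in transgenic libraries, 2.93, 2.91, 5.39, 4.44 and 2.93 CPM in knockout replicates 1 to 5 and 0.806, 1.15 and 3.91 CPM in controls. Control counts were 3 to 6 in 5 libraries and 14 in replicate 2, the only control that reached the knockout range. Over controls, transgenic libraries gave a log2 fold change of 2.29 (SE 0.41, adjusted p = 0.000705) and knockouts one of 1.28 (SE 0.44, adjusted p = 0.11). Without control replicate 2 the second value was 1.79 (adjusted p = 0.0303). This is the called row whose exons stayed on its own gene at the scanned move, with 357 bases, and chromosome 12 had its highest rho unmoved.

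Trim30a, a TRIM-family regulator of Toll-like receptor signalling, was higher in both mutant groups at low counts. Its row (ENSMUSG00000030921, chromosome 7, 104409025 to 104465193) held 1.48, 5.8 and 8.59 CPM in transgenic libraries, 4.0, 9.07, 10.2, 5.83 and 3.91 in knockout replicates 1 to 5 and 1.4, 1.89 and 3.22 in controls. Transgenic replicate 6, with 5 counts, lay within the control range, whereas every knockout library lay above that range. It rose by 1.35 (SE 0.39, adjusted p = 0.0345) in transgenic and by 1.64 (SE 0.4, adjusted p = 0.0361) in knockout libraries. Neither call was stable. The first ended without transgenic replicate 1, 2, 4 or 5 or control replicate 1, 2, 3 or 4, at 1.18 to 1.37. The second ended, at 1.42 to 1.70, when any 1 of control replicates 1, 2, 3, 4 or 6 or knockout replicates 2 or 3 was left out.

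Schlafen genes are interferon-induced and linked to T cell quiescence. The Slfn5 row (ENSMUSG00000054404, chromosome 11, 82951349 to 82964840) held 873, 1020 and 1500 CPM in transgenic libraries, 988, 1405, 1338, 897 and 1384 CPM in knockout replicates 1 to 5 and 527, 691 and 894 CPM in controls. Knockout replicates 2, 3 and 5 and transgenic replicate 1 are the highest, and the lowest transgenic library fell below control replicate 2. The row rose over controls by 0.60 on the log2 scale in transgenic (SE 0.15, adjusted p = 0.0128) and by 0.78 in knockout libraries (SE 0.15, adjusted p = 0.00834). With knockout replicates 2, 3 and 5 left out together, the second value was 0.43 (adjusted p = 0.498). The Slfn window of 18 rows summed to 2997 ± 527 CPM in transgenic libraries, 3151 ± 548 in knockouts and 2427 ± 292 in controls, and the groups overlapped. Moved, the row lay on Slfn9 with 228 bases, and at 0.5 kb per Mb on Slfn8 with 2285.

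**Figure D3:**
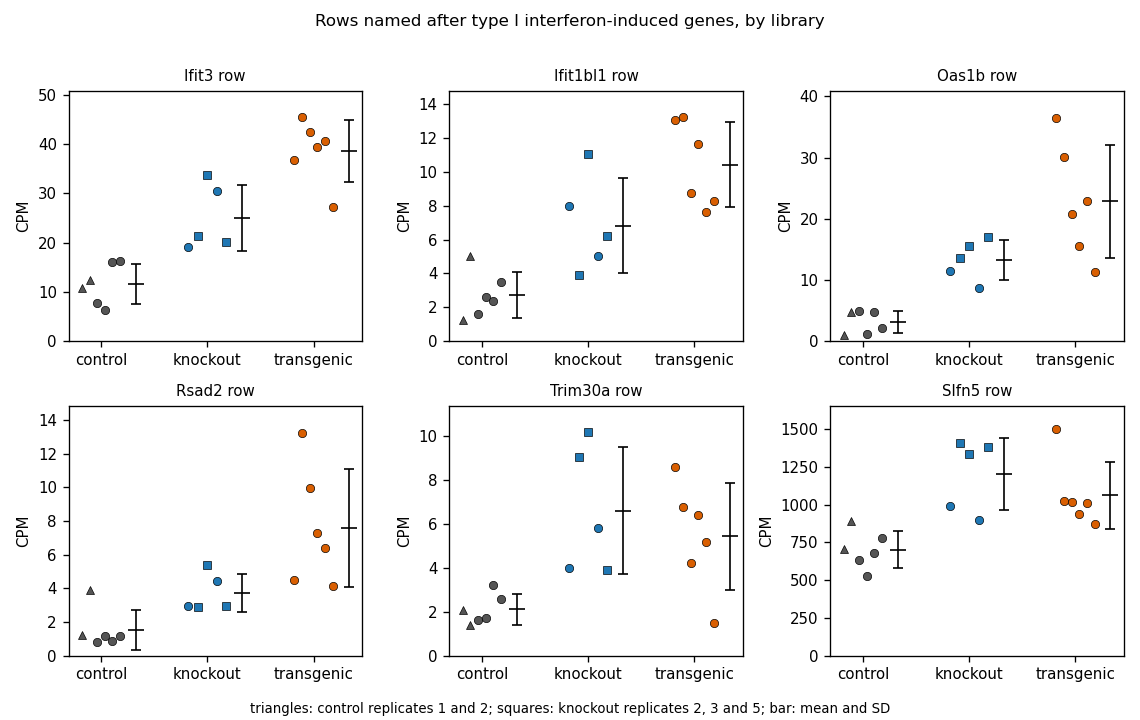
CPM (y axis, linear) of the Ifit3, Ifit1bl1, Oas1b, Rsad2, Trim30a and Slfn5 rows in each of the 17 libraries by group (x axis); triangles are control replicates 1 and 2, squares knockout replicates 2, 3 and 5, and bars mean and SD. For Ifit3 and Oas1b every transgenic and knockout point lies above every control point, at 27.2 to 45.5 and 19.2 to 33.8 against at most 16.2 CPM for Ifit3.

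GBPs are interferon-induced GTPases that coat intracellular pathogens. The Gbp7 row (ENSMUSG00000040253, chromosome 3, 142530342 to 142550149) held 287, 326 and 342 CPM in transgenic libraries, 167, 163, 189, 187 and 133 CPM in knockout replicates 1 to 5 and 172, 296, 112, 119, 113 and 137 CPM in control replicates 1 to 6. Control replicate 2 lay inside the transgenic range, and replicate 1 lay above the other 4 controls. No knockout library reached the lowest transgenic value. The row was higher in transgenic libraries by 1.02 on the log2 scale than in controls (SE 0.18, adjusted p = 0.000845) and by 0.93 than in knockouts (SE 0.2, adjusted p = 0.00292). Knockouts differed from controls by 0.08 (SE 0.19, adjusted p = 0.82). Without control replicates 1 and 2 the first value was 1.42 (adjusted p = 2.48e-07). With those 2 as the only controls it was 0.45 (adjusted p = 0.502), and knockout against control was then -0.49 (adjusted p = 0.591).

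Gbp5, which promotes inflammasome assembly, lay beside it (ENSMUSG00000105504, chromosome 3, 142493978 to 142522344). Transgenic libraries held 13.6, 20.2 and 21.3 CPM, knockout replicates 1 to 5 held 11.5, 10.4, 14.5, 5.27 and 8.47, and controls 6.07, 8.25 and 10.1. Every transgenic library was above every control, and the lowest transgenic library was below knockout replicate 3. The row was higher by 1.19 on the log2 scale (SE 0.22, adjusted p = 0.000897) in transgenic than in control libraries and by 0.91 (SE 0.23, adjusted p = 0.0121) than in knockouts, while knockout against control gave 0.28 (SE 0.23, adjusted p = 0.48). With control replicates 1 and 2 as the only controls, the last value was -0.02.

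Of the 7 GBP members, 5 were tested. Gbp3 gave 0.87 (adjusted p = 0.156), Gbp6 1.02 (adjusted p = 0.0715) and Gbp9 0.50 (adjusted p = 0.397) for transgenic against control, and none was called in any comparison. In these 3 rows control replicate 2 was again the highest control, at 27.1, 11.7 and 79.1 CPM, where the other controls held at most 10.1, 4.03 and 42.1. Without control replicates 1 and 2, Gbp3 gave 1.52 (adjusted p = 0.00642) and Gbp6 1.59 (adjusted p = 0.00251). Gbp2 and Gbp4 had at most 10 and 9 counts and were not tested.

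Summed over the 10 rows of the Gbp2/3/5/7 window (chromosome 3, 142393978 to 142738008), transgenic libraries held 482 ± 22.7 CPM (SD, n = 6), knockouts 306 ± 37.6 (SD, n = 5) and controls 273 ± 84.4 (SD, n = 6). The transgenic sums, from 459 CPM, all exceeded the highest knockout and control sums of 359 and 435 CPM, the latter from control replicate 2. In the Gbp4/6/9 window (chromosome 5, 104977630 to 105393698) the sums were 294 ± 8.06, 223 ± 23.8 and 164 ± 74.5 CPM, and control replicate 2, at 312 CPM, was above every transgenic library. Knockout sums there, 199.7 to 263 CPM, exceeded the other 5 controls, which reached 151 CPM. The Gbp8 row of this window, not a member, was higher than controls in both mutant groups. It rose by 0.61 in transgenic (adjusted p = 0.00973) and by 0.66 in knockout libraries (adjusted p = 0.0268), with -0.04 between them. The knockout call of Gbp8 depended on single libraries. Gbp10, also there and not a member, was called for transgenic against control only (1.23, adjusted p = 0.00228). At the scanned move the Gbp5 row lay on Gbp3 with 1230 bases, Gbp7 on Gbp2b with 721 and Gbp9 on Gbp4 with 1329, so which GBP each row counts is uncertain while the family is kept. The row Gm43802 in the first window, not a member and picked out after its values were seen, had a log2 fold change of 5.41 for transgenic and 4.84 for knockout against control (adjusted p = 0.000973 and 0.0158).

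**Figure D4:**
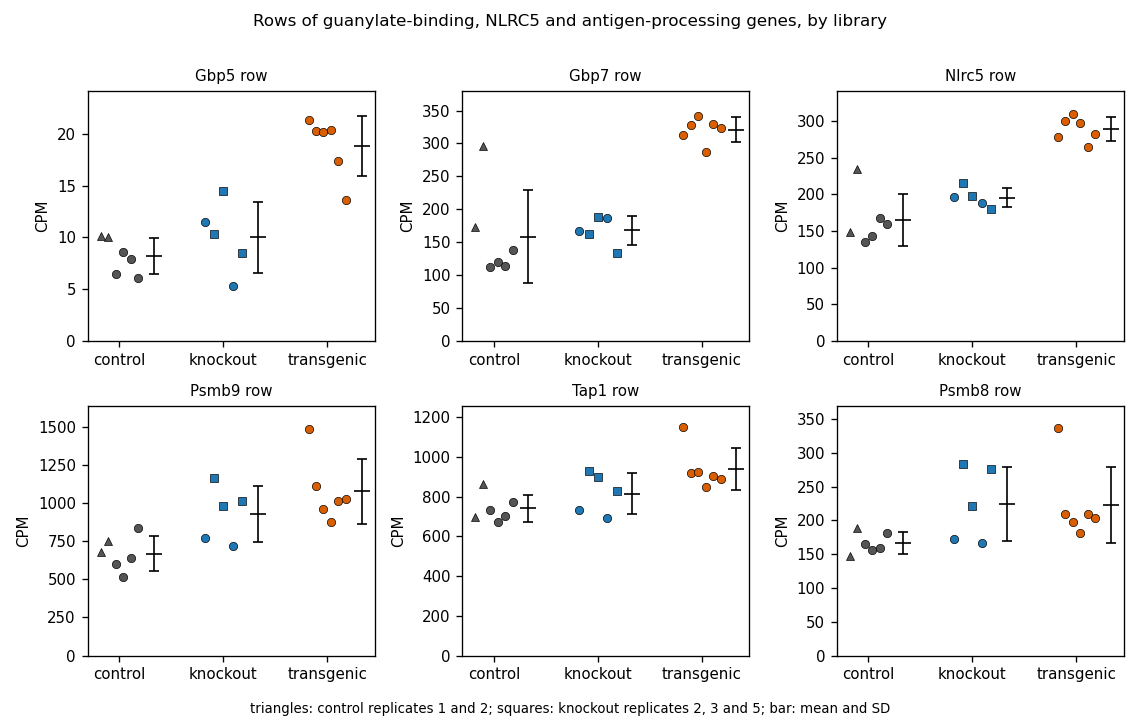
CPM (y axis, linear) of the Gbp5, Gbp7, Nlrc5, Psmb9, Tap1 and Psmb8 rows in each library by group (x axis); triangles are control replicates 1 and 2, squares knockout replicates 2, 3 and 5, and bars mean and SD. For Gbp7 and Nlrc5 the transgenic points, from 287 and 265 CPM, lie above all knockout points, and 1 triangle, control replicate 2, stands above the other controls at 296 and 234 CPM.

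Nlrc5 is the transactivator of MHC class I genes. The Nlrc5 row (ENSMUSG00000074151, chromosome 8, 94434356 to 94527272) held 265, 290.0 and 310.0 CPM in transgenic libraries, 196, 215, 197, 188 and 180.0 CPM in knockout replicates 1 to 5 and 135, 154 and 234 CPM in controls. All transgenic libraries lay above all knockouts and controls, and knockouts overlapped the controls through control replicate 2 alone. Transgenic libraries exceeded controls by 0.81 on the log2 scale (SE 0.11, adjusted p = 3.83e-05) and knockouts by 0.57 (SE 0.12, adjusted p = 0.00272), and the knockout value over controls was 0.24 (SE 0.12, adjusted p = 0.221). Without control replicate 2 the knockout value was 0.37 (adjusted p = 0.0453). The moved exons of this row lay mostly on no coding exon, with 236 bases on Cpne2 and 161 on Nlrc5 itself.

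Other members of interferon signalling were not called. Irf9, the DNA-binding subunit of the type I complex, held 29.9 to 60.5 CPM in transgenic libraries, 39.5 to 54.7 in knockouts and 45.6 to 57.0 in controls. Irf7, which amplifies interferon production, held 15.9 to 28.4, 13.9 to 33.4 and 17.2 to 30.8 CPM, and Irf1, the gamma-induced factor, 8.0 to 19.2, 3.26 to 17.1 and 5.91 to 14.2. Stat2 stayed between 0.27 and 7.56 CPM across all libraries, and Irf8 had at most 1 count. At 0.4 kb per Mb these rows lay mostly on genes outside the family, although chromosome 14, which holds Irf9, had its best move at 0.15, so their values need not be those of the named factors.

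Psmb8, Psmb9 and Psmb10 are the inducible proteasome subunits, and Tap1 is a subunit of the peptide transporter. Psmb9 (ENSMUSG00000096727, chromosome 17, 34181987 to 34187764) held 874, 1020 and 1480 CPM in transgenic libraries, 768, 1164, 978, 716 and 1012 in knockout replicates 1 to 5 and 514, 658 and 835 in controls. The lowest transgenic library was above the highest control, and 2 knockout libraries, replicates 1 and 4, lay within the control range. It rose by 0.69 (SE 0.14, adjusted p = 0.00312) in transgenic libraries, and knockout against control gave 0.47 (SE 0.15, adjusted p = 0.0862). The knockout value was called without transgenic replicate 1 (0.47), knockout replicate 1 (0.53) or knockout replicate 4 (0.55).

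Tap1 (ENSMUSG00000037321, chromosome 17, 34187553 to 34197225), which shares a bidirectional promoter with Psmb9, held 849, 911 and 1150 CPM in transgenic libraries, 732, 928, 896, 692 and 826 in knockouts and 674, 719 and 862 in controls. Its rise of 0.34 on the log2 scale (SE 0.1, adjusted p = 0.0345) over controls was the smallest among called members. It lost its call without transgenic replicate 1, 2, 3 or 5 or control replicate 1, 3, 4 or 5, at 0.27 to 0.35. Psmb8, at 182 to 336, 167 to 283 and 147 to 189 CPM, and Psmb10, at 0.559 to 7.45 CPM across all libraries, were not called. The Tap1/Psmb8/Psmb9 window (chromosome 17, 34081987 to 34301454) summed to 2417 ± 424 CPM in transgenic libraries, 2190 ± 396 in knockouts and 1736 ± 188 in controls, with 91.2% from the 3 members. Every transgenic sum, from 2047 CPM, exceeded the highest control sum of 1986 CPM. Moved rows stayed among these genes and Tap2, which encodes the partner subunit of the transporter.

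**Figure D5:**
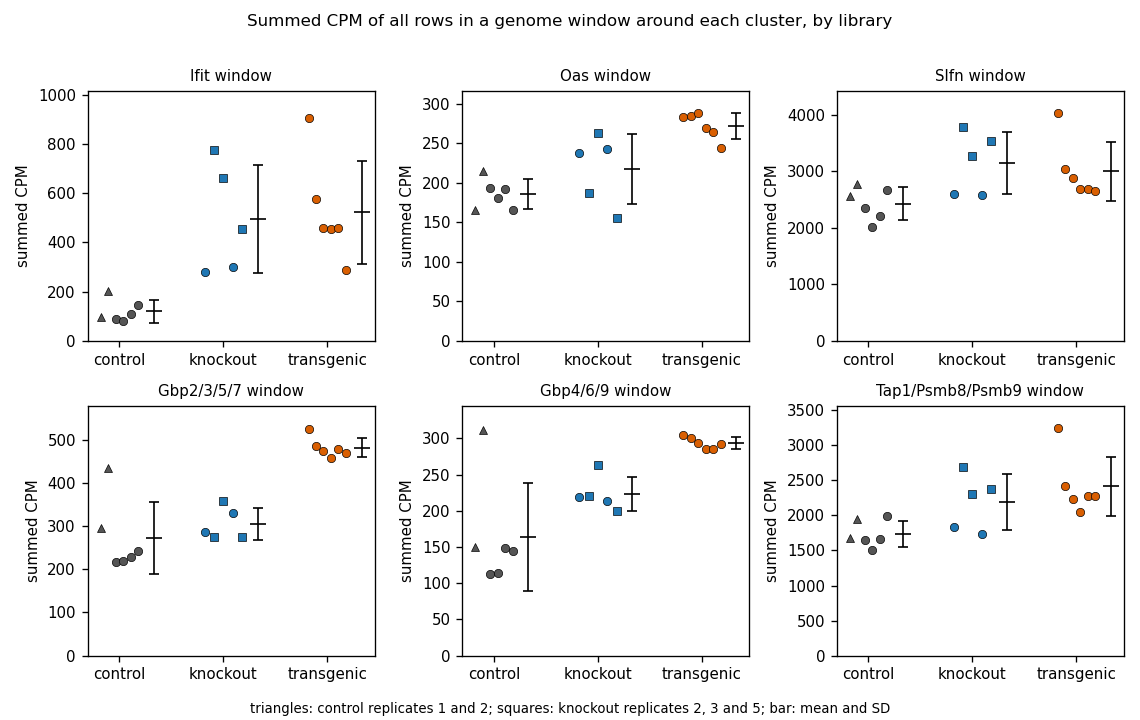
Summed CPM (y axis, linear) of all rows within 100 kb of each family cluster, in each library by group (x axis); triangles are control replicates 1 and 2, squares knockout replicates 2, 3 and 5, and bars mean and SD. The Ifit sums of both mutant groups lie above all controls, whereas in the Gbp2/3/5/7 window the transgenic sums alone do, with control replicate 2 next below them at 435 CPM.

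No member of the remaining families was called. Mx1, a dynamin-like antiviral GTPase, held 166 to 253 CPM in transgenic libraries, 122 to 273 in knockouts and 99.2 to 196 in controls, with a log2 fold change of 0.37 (SE 0.17, adjusted p = 0.222) for transgenic against control. Ifi203, a nuclear DNA-binding protein of the p200 family, gave 1.40 (SE 0.42, adjusted p = 0.0754) for knockout against control, with knockout values of 14.7, 26.2, 8.22, 6.11 and 10.4 CPM against 1.45 to 6.99 in controls. This difference was called without knockout replicate 4 (1.58). Ifih1, the RNA sensor MDA5, ranged from 0 to 11.3 CPM over all libraries. Irgm1, an immunity-related GTPase that regulates autophagy, held 94.6 to 232 CPM in transgenic libraries, 73.4 to 230.0 in knockouts and 162 to 228 in controls, and its knockout value of -0.38 (SE 0.25, adjusted p = 0.379) was 0.26 without knockout replicates 2, 3 and 5. The other 4 immunity-related GTPases, the ISG15 genes and 7 of the 9 restriction-factor members had too few counts to test.

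The window around Irgm1 and Ifi47 (chromosome 11, 48761968 to 49196974) summed to 3979 ± 558 CPM in transgenic libraries, 3296 ± 538 in knockouts and 2552 ± 793 in controls, of which 5.2% came from members. Rows named Gm12187 and Trim7 there, not members, were higher in transgenic than in control libraries by 0.83 (adjusted p = 0.0063) and 0.91 (adjusted p = 0.0132). So were 9930111J21Rik1 and 9930111J21Rik2, by 0.95 (adjusted p = 0.0208) and 0.74 (adjusted p = 0.0381), and none of these rows was called for knockout against control. The Mx window summed to 200.5 ± 31.3, 201.5 ± 58.4 and 153 ± 32.0 CPM in the same order. Sums of the Igtp and Irgm2 window, with 0.0% from members, were 222 ± 14.1, 193 ± 19.8 and 183 ± 21.8. Its largest tested row, Zfp672, averaged 102.9 CPM and was not called. Gm12250, a low row there and not a member, was higher in transgenic than in control (adjusted p = 0.0125) and knockout libraries (adjusted p = 0.0416). Mrpl22 was higher in transgenic than in knockout libraries only (adjusted p = 0.00998). Neither was called for knockout against control, and the window's other tested rows had no call.

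Control replicates 1 and 2 both lay above the other 4 controls in 6 of the 26 tested members (23.1%), namely Irf1, Rsad2, Gbp3, Gbp5, Gbp7 and Gbp9, against 6.71% of all rows tested. With these 2 as the only controls, 2 members were called higher for transgenic against control, Ifit3 at 1.75 (adjusted p = 0.00256) and Oas1b at 3.03 (adjusted p = 0.00779), and 0 for knockout against control, where calls over all rows also fell, to 1.21% and 0.0185% higher. Without them the counts were 11 and 2, against 3.98% and 0.375% of all rows. Gbp5, Gbp7 and Nlrc5 were called for transgenic over knockout in either case, and with control replicates 1 and 2 as the only controls Ifit3 was called too (adjusted p = 0.0497). Controls enter those adjusted p-values through the shared fit. Knockout replicates 2, 3 and 5 together lay above the other knockouts in Mx1, Oas1b, Psmb8, Psmb9, Slfn5 and Tap1 (6 of 26, or 23.1%) and below them in Gbp9, Ifih1, Irf1, Irf7, Irgm1 and Oas3 (6 of 26, or 23.1%), close to the 21.6% and 22.6% of all rows. Without these 3 libraries, 14 members were called for transgenic against control, 0 for knockout against control and 3 for transgenic against knockout, where 8.12%, 0.0923% and 5.42% of all rows were called higher. The 5 knockout values then ran from 0.43 for Slfn5 to 1.72 for Oas1b. The part of these libraries' shared features in the calls was not tested.

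Of 86 further genes of the pathway, 52 were tested. Against controls, 8 were higher and 2 lower in transgenic libraries, where 5.23% and 2.17% of all rows were, with a median of 0.18. Leading the higher rows, beside Ifit2, were Rnf213, an interferon-induced ubiquitin ligase, at 0.54 (SE 0.1, adjusted p = 0.00123), and Gbp10 at 1.23 (SE 0.25, adjusted p = 0.00228). The 2 lower rows were Ifnar1, a type I receptor chain, at -1.20 (SE 0.35, adjusted p = 0.0411), and Socs3, a feedback inhibitor of JAK signalling, at -1.03 (SE 0.29, adjusted p = 0.0292). Both were low, at 0.603 to 5.78 and 1.48 to 7.23 CPM over all libraries.

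For knockout against control, 2 of the 52 were higher, Ifit2 and Gbp8 at 0.66 (SE 0.15, adjusted p = 0.0268), and 0 lower by edgeR's adjusted test, where 0.881% and 1.01% of all rows were. The Gbp8 call ended, at 0.56 to 0.67, when any 1 of control replicates 1, 3, 4, 5 or 6 or knockout replicates 3 or 5 was left out. Transgenic against knockout, 3 were higher and 1 lower, no larger a share than the 6.34% and 4.33% of all rows. Tapbp, the tapasin chaperone of peptide loading, was lower, at -0.79 (SE 0.15, adjusted p = 0.00156). Irf4, which effector Tregs require, was higher by 0.66 (SE 0.17, adjusted p = 0.015), Samd9l, an antiviral translation inhibitor, by 0.48 (SE 0.14, adjusted p = 0.0262) and Ifi35 by 2.01 (SE 0.61, adjusted p = 0.0354). The Samd9l call ended without transgenic replicate 2, 3, 4 or 5 or knockout replicate 2 or 5, at 0.41 to 0.48, and the Ifi35 call without transgenic replicate 2, 4, 5 or 6 or knockout replicate 3 or 5, at 1.70 to 2.09. Ifng and the interferon alpha and beta rows Ifnb1, Ifna1 and Ifna4 had at most 2 counts in any library.

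Positions of the member rows were compared with the gene models at moves of 0.3, 0.4 and 0.5 kb per Mb. A gene was counted here if it was of an interferon-induced family or among the members and further pathway genes, which include receptors and sensors. Of the 11 members called in any comparison, 8 lay on such a gene at all 3 moves. So did 5 of the 15 tested members that were not called. At 0.4 kb per Mb these numbers were 10 of 11 and 7 of 15, and 14 of the 23 untested members lay on no protein-coding exon. The members were split by their calls after the values had been seen, so these shares are a description.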

How the data were processed

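Foxp3-GFP+ Tregs of 17 libraries were compared by genotype. Per the labels' protocols, reads of 67 bp carried molecular identifiers of 9 bp. No source used here says if these served to collapse duplicates, so counting floors cover counting error only. The authors deposited expected counts per gene, made with Bowtie2 on GRCm38 per the submitters' processing notes and with Ensembl 102 transcripts per the labels. Of its 47643 rows, 47224 had a symbol and position in GENCODE for GRCm38, and 5.87% of values were not whole. Counts were rounded.

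edgeR 4.0.16's quasi-likelihood F test (R 4.3.3) used TMM factors, filterByExpr on groups and all 17 libraries in 1 fit. It tested 9986 rows, with Benjamini-Hochberg adjustment over all of them, a threshold of 0.05 and a common biological coefficient of variation of 0.241. Tested on simulated data, it recovered 54% and 90% of rows changed by 1 and 2 on the log2 scale for transgenic against control (9712 rows, 4 false calls), 55% and 93% for knockout against control (9745 rows, 9 false calls), and 59% and 90% for transgenic against knockout (9727 rows, 4 false calls). Standard errors come from the fold change and its F statistic. Named were all called members, the member with the smallest p where a family had no call, and up to 4 other pathway genes per comparison by adjusted p, of which 1 is not reported here. Windows reach 100 kb beside clusters of members at most 500 kb apart, summed without a test. The members and lists were chosen with earlier results of these data known. Alternatives were RLE and upper quartile factors, a replicate block, DESeq2 1.42.0, voom with limma 3.58.1, unrounded counts, other filters, pairwise fits and left-out libraries. Leaving out sets of libraries together was added after seeing the data.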

Additional observations from a re-analysis of the deposited data

Results flagged for a closer look

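Of 108 groups of values examined, 21 had 1 library whose gap to the nearest other exceeded Dixon's 95% critical value, where chance gives about 1 in 20. The groups are not independent, because window sums include the same rows and all rows share the libraries, so this rate is only a guide. Control replicate 2 accounted for 11. Its rows stood above the other controls for Nlrc5 (234 CPM against 135 to 168), Rsad2 (3.91 against 0.806 to 1.24), Gbp3 (27.1 against 5.55 to 10.1), Gbp6 (11.7 against 2.63 to 4.03), Gbp7 (296 against 112 to 172) and Gbp9 (79.1 against 26.6 to 42.1), and below them for Psmb10 (0.559 against 2.07 to 2.92). Its window sums were also the highest control for Irgm1 and Ifi47 (4060 CPM), Rsad2 and Cmpk2 (4.75), Gbp2/3/5/7 (435) and Gbp4/6/9 (312).

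Transgenic replicate 1 accounted for 9. It stood above the other transgenic libraries for Stat2 (7.56 CPM against 1.75 to 3.01), Slfn5 (1500 against 873 to 1030), Tap1 (1150 against 849 to 925) and Psmb8 (336 against 182 to 210), and below them for Irf9 (29.9 against 50.6 to 60.5). Its sums led the windows of Irgm1 and Ifi47 (5100 CPM), Igtp and Irgm2 (249), Slfn (4030) and Tap1/Psmb8/Psmb9 (3250). Knockout replicate 3 stood apart for Oas2, at 8.79 CPM against 3.24 to 4.23.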

How the results depend on the processing

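Members called lower numbered 0 in each comparison under every setting run. For transgenic against control, 11 members were called higher, 9 to 12 with 1 library left out, and 2 with control replicates 1 and 2 as the only controls. For knockout against control the 5 calls became 3 with limma and voom, 2 with only the groups compared, 2 without control replicates 1 and 2, 0 without control replicates 3 to 6 and 0 without knockout replicates 2, 3 and 5. Leaving out 1 library gave 3 (knockout replicate 3 or control replicate 1, 3, 4 or 6) to 8 (knockout replicate 4). For transgenic against knockout the 3 calls became 5 with no filter beyond a count above 0, and 3 to 7 with 1 library left out, 7 without knockout replicate 4. The cause of these changes was not tested, except that settings with fewer libraries have fewer samples.

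Libraries that share a replicate number were not pairs: of 16 same-numbered pairs, with correlations of -0.517 to 0.364, 1 was over 0.1. With the replicate block, members called higher numbered 10, 2 and 3 in the 3 comparisons.

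Single rows reversed 6 times among 1333 alternative values, all without a call: with control replicates 1 and 2 as the only controls, Gbp5 gave -0.02 and Gbp7 -0.49 for knockout against control, and without knockout replicates 2, 3 and 5, Tap1 gave -0.06 and Irgm1 0.26 for knockout against control and Slfn5 0.18 and Trim30a 0.15 for transgenic against knockout. Of the rest, 1201 kept their direction and side of the threshold, 110 lost a call and 16 gained one. Window sums moved by more than the combined SD of the 2 groups on the log2 scale in 5 cases: with 200 kb beside the members, Ifit gave 1.21 and 1.12 (transgenic and knockout over control, log2), and with 50 kb, Igtp and Irgm2 gave 0.82 and -0.24 and Oas 0.34 for transgenic. Rsad2 and Cmpk2 went with 200 kb from 2.16 to 0.83 and from 1.26 to 0.35, within their SDs of 1.4 and 1.33. With plain library totals in place of TMM factors, every window value over controls was lower. For knockouts, Tap1/Psmb8/Psmb9 went from 0.34 to 0.19, Slfn from 0.38 to 0.23 and Mx from 0.4 to 0.25. Over all rows, calls for knockout against control were 88 higher and 101 lower, against 340 and 265 with DESeq2 and 23 and 44 with the replicate block. Rows below about 10 counts in too few libraries were filtered out of the test.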
